A study of Homo sapiens with 6 samples.

Results

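A set of 10 non-fibrillar collagen genes that BT549 cells transcribe, COL4A1, COL4A2, COL6A1, COL6A2, COL6A3, COL7A1, COL8A1, COL13A1, COL16A1 and COL18A1, were examined after knockdown of basonuclin-2 (BNC2), a zinc finger protein. They were 10 of the 23346 genes in the count table, of the 46 collagen genes it lists (COL6A4P1, COL6A4P2 and EMID2 included) and of the 21 collagen genes that passed the filter of more than 1 CPM (counts scaled to library size, with TMM factors) in at least 3 libraries. The genes were taken by name, and they were chosen from results of this same contrast, so their levels and fold changes between the groups are given as a description and carry no p-value. BT549 is a mesenchymal-like human breast cancer cell line. One group of 3 libraries came from cells given 20 nM negative control (NC) siRNA and the other group of 3 from cells given 20 nM BNC2 siRNA, an equal mix of 3 duplexes, with RNA prepared on day 6. Both groups are BT549 cells labelled wild-type that went through the same transfection, and poly(A) RNA was sequenced.

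Collagens are built from chains that wind into a triple helix of glycine-rich repeats. Fibrillar collagens pack into the banded fibres of connective tissue, and the other collagens organise around them or form structures of their own. Collagen IV is the network of the basement membrane, the sheet on which epithelia and vessels rest, and collagen VIII forms a hexagonal lattice found around vessels and in the cornea. Collagen VI assembles into beaded filaments that link cells to the surrounding matrix, collagen VII makes the fibrils that anchor the epidermal basement membrane to the dermis, and collagen XVI is a FACIT, a fibril-associated collagen with interrupted helices. Collagen XIII sits in the plasma membrane and is found at sites of cell adhesion. Collagen XVIII is a multiplexin, a basement membrane collagen that carries heparan sulphate chains and releases the fragment endostatin when it is cut.

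The duplexes are shown because 1 of the 10 genes, COL8A1, was lower with BNC2 siRNA, and a short RNA can pair with transcripts other than its target through its seed. The guide (antisense) strands are given 5′ to 3′ with the seed, bases 2 to 8, in capitals.

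BNC2 siRNA (1): uUUACACUgaucacaagucct
BNC2 siRNA (2): uUGUCAUAgaaugucuucctt
BNC2 siRNA (3): uUUCGGCUucguacagaggtt
NC siRNA: aCGUGACAcguucggagaatt

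The targets of the 3 BNC2 duplexes all lie in coding exons on the minus strand of chromosome 9 (GRCh37), at chr9:16583000-16583018 in exon 4, chr9:16436834-16436852 in exon 6 and chr9:16419045-16419063 in exon 7. The sense strand of the NC duplex had no match in the BNC2 transcript. Of the 10 collagens, COL8A1 was the one whose 3′ UTR held a match to the seed of a BNC2 duplex. The matches are shown in capitals with 10 bases of the plus strand on each side, both in exon 5, the first at chr3:99517717-99517723 and the second at chr3:99517864-99517870.

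COL8A1, seed of BNC2 siRNA (1): ttaacatattAGTGTAAaagcagatga
COL8A1, seed of BNC2 siRNA (2): tttaatgcagTATGACAtcccacaggg

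With 3090 bases, the 3′ UTR of COL8A1 is the longest among the 10 genes, which range down to 296 bases in COL6A2. Among 11478 tested genes with an annotated 3′ UTR, 14.65% held a match to the seed of duplex (1), 11.32% to that of duplex (2) and 2.69% to that of duplex (3). The NC seed matched COL6A3 once among the 10 genes and 3.81% of the 11478. A match is a run of letters, and its part in the level of COL8A1 was not tested.

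Promoter windows, 250 bases before to 50 after the start of transcription, were found in RefSeq (GRCh38.p14) for 8 of the 10 genes, with 9 windows in all because COL18A1 has a pair of starts. Those of COL4A2, COL18A1 and COL6A2 are shown because COL4A2 shares its window with COL4A1, the pair of COL18A1 starts differ in make-up, and COL6A2 lies on the same chromosome as COL18A1. Capitals mark matches, on either strand, to any of the motifs searched. These were the TATA box (TATAAA), the box bound by SP family factors, here called the GC box (GGGCGG), the CCAAT box, and the motif bound by the AP-1 family of factors (TGANTCA).

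COL4A2, plus strand, chr13:110307034-110307333: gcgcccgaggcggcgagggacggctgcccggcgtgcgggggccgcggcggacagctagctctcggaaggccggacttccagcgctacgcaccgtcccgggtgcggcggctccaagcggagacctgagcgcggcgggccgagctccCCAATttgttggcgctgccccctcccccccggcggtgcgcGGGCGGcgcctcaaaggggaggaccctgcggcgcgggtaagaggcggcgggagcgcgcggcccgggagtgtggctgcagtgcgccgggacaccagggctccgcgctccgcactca
COL18A1, upstream start, plus strand, chr21:45404915-45405214: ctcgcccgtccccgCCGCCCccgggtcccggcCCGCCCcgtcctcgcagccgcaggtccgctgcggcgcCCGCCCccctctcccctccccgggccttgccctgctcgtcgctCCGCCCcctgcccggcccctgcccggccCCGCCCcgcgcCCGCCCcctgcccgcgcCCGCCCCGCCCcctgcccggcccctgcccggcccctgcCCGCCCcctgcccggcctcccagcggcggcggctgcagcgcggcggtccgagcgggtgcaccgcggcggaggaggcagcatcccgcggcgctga
COL18A1, downstream start, plus strand, chr21:45455272-45455571: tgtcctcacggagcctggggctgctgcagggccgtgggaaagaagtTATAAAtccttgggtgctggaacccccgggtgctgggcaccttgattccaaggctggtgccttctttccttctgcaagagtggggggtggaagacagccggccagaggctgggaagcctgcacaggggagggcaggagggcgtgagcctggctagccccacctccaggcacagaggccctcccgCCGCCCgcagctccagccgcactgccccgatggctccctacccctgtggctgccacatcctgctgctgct
COL6A2, plus strand, chr21:46097862-46098161: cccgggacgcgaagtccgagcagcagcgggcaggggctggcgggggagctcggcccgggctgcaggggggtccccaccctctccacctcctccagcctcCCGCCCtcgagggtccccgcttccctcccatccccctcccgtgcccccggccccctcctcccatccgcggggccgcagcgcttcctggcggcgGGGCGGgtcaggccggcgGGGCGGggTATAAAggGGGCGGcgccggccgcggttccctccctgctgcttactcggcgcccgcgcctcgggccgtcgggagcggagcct

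COL4A1 and COL4A2 are transcribed away from each other from starts 127 bases apart, and their windows share 226 bases, so the CCAAT box printed above is also in the window of COL4A1. The window of the upstream start of COL18A1 held 9 matches to the GC box and none to the TATA box. That of its downstream start, 50357 bases away, held 1 of each. COL6A2 held 4 GC boxes and a TATA box 32 bases before its start. The other TATAAA matches lay at -124 in COL7A1, -236 in COL13A1 and -204 at the downstream start of COL18A1, counted from each start. At any position, 7 of the 9 windows matched the GC box, 4 the TATA box, 2 the CCAAT box and none the AP-1 motif. Over all 35116 windows the shares were 45.0%, 11.5%, 34.6% and 7.7%. A match was counted wherever it lay, and whether any acts as a TATA box was not tested. The GC content of the windows ranged from 56.3% to 86.7%. Binding to these windows was not measured.

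The libraries held 16093978 to 18246254 counts in genes, with TMM factors of 0.972 to 1.04, and the common biological coefficient of variation was 6.16%. BNC2 itself was measured at 65.6, 51.5 and 58.6 CPM with NC siRNA and at 35.5, 36.6 and 41.6 CPM with BNC2 siRNA, so that 64.6% of its transcript remained (edgeR log2 fold change -0.63, standard error 0.09, with an adjusted p of 8.2e-06). The mesenchymal label fits the markers measured, with all 10 mesenchymal markers past the filter (summed level 6919 to 7008 CPM with NC siRNA, 7074 to 7382 CPM with BNC2 siRNA) and VIM (vimentin) at 3024 ± 55.0 CPM (SD, n = 3) with NC siRNA. Of these markers 6 rose, among them TWIST1 by 1.54, CDH2 by 1.36 and SNAI2 by 1.15, and 3 fell, among them ZEB2 by 1.22 on the log2 scale, in the contrast in which 36.6% of all genes rose and 36.2% fell. The call of VIM, a rise of 0.18, was lost without NC siRNA replicate 2 (adjusted p = 0.058) and with scaling by total counts (adjusted p = 0.090). The adipocyte marker FABP4 fell from 39, 33 and 30 counts to 0 in each BNC2 siRNA library. The 6 leukocyte markers summed to 111.6 to 125.4 CPM with NC siRNA and 138.0 to 150.3 CPM with BNC2 siRNA, nearly all of it CD68, a lysosomal protein that rose by 0.29 (adjusted p = 0.00041), while the defining marker PTPRC had 2 to 7 counts per library and AIF1 had 0 in all. The part of these changes in the levels of the collagens was not tested. The epithelial markers EPCAM, ESRP1 and CLDN3 had 0 counts in all 6 libraries. CDH1 had 1 count in NC siRNA replicate 1 and 0 in each other library. The 10 epithelial markers together summed to 0.963 to 1.52 CPM with NC siRNA and 1.22 to 1.86 CPM with BNC2 siRNA. The 7 endothelial markers, which mark a cell type rich in collagens IV, VIII and XVIII, summed to 0.620 to 1.46 CPM with NC siRNA and 0.191 to 0.872 CPM with BNC2 siRNA.

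With BNC2 siRNA, 9 of the 10 collagens were higher in each library than in any NC siRNA library, and COL8A1 was lower in each. All 10 passed the count filter, COL13A1 through the BNC2 siRNA libraries alone. By edgeR's quasi-likelihood test 9 were called higher and 1 lower at an adjusted p of at most 0.05, in a contrast in which 72.9% of the 12186 genes tested were called, 36.6% higher and 36.2% lower, and in which the groups did not overlap for 74.9%. As the genes were selected on this contrast, nothing is read from their count. Their median log2 fold change was 1.27, against 0.00 over all genes tested. A level in these bulk libraries does not tell fewer expressing cells from less RNA per cell.

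**Figure D1:**
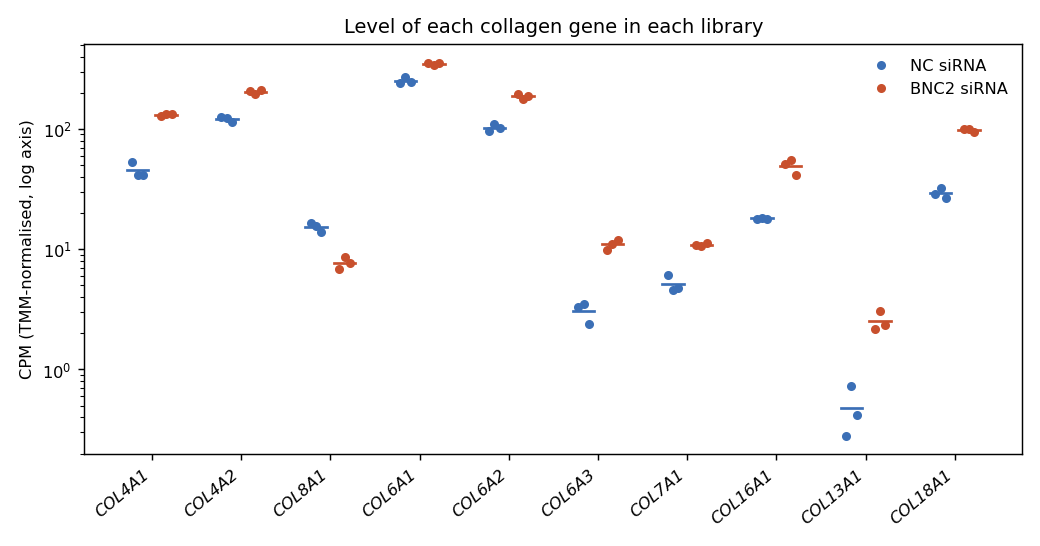
Level of each of the 10 collagen genes in CPM on a log axis, with 1 point per library, NC siRNA in blue and BNC2 siRNA in red, and a line at each group mean. COL8A1 is the gene with red points below blue, and COL13A1 lies lowest, at 0.282 to 3.05 CPM.

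COL4A1 and COL4A2 encode the chains of the collagen IV trimer common to most basement membranes. COL4A1, on the minus strand at chr13:110801310-110959504 (GRCh37; ENSG00000187498), was at 52.7, 41.7 and 41.2 CPM with NC siRNA and at 127.3, 133.5 and 134.2 CPM with BNC2 siRNA. The BNC2 siRNA libraries lay close together and the first NC siRNA library stood above the other two, without overlap between the groups. The log2 fold change was 1.54 (standard error 0.08), or 2.91-fold. COL4A2, on the plus strand at chr13:110958159-111165556 (ENSG00000134871), was at 125.8, 123.2 and 113.7 CPM with NC siRNA and at 206.2, 195.1 and 210.7 CPM with BNC2 siRNA. Its log2 fold change was 0.75 (standard error 0.06), or 1.69-fold, so the partner with the lower level in control cells had the larger difference. The annotated genes overlap by 1346 bases at their starts, on opposite strands.

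COL8A1, at chr3:99357319-99518070 on the plus strand (ENSG00000144810), encodes a chain of collagen VIII. It was at 16.6, 15.6 and 13.8 CPM with NC siRNA and at 6.86, 8.69 and 7.70 CPM with BNC2 siRNA. Each BNC2 siRNA library was below each NC siRNA library, and the log2 fold change was -0.98 (standard error 0.12), leaving 50.7% of the control level. COL8A2, the gene for its partner chain, had 2, 5 and 1 counts with NC siRNA and 1, 0 and 1 counts with BNC2 siRNA, and was not tested.

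The 3 collagen VI genes differed in both level and fold change. COL6A1, at chr21:47401684-47424964 on the plus strand (ENSG00000142156), was at 239.3, 270.1 and 247.7 CPM with NC siRNA and at 353.1, 340.2 and 356.1 CPM with BNC2 siRNA, the smallest fold change among the 10 genes (0.47 on the log2 scale, standard error 0.06). COL6A2, at chr21:47518026-47552762 on the plus strand (ENSG00000142173), was at 96.7, 110.8 and 101.0 CPM with NC siRNA and at 195.9, 177.8 and 188.8 CPM with BNC2 siRNA (log2 fold change 0.87, standard error 0.06). COL6A1 and COL6A2 lie 93.1 kb apart, and their groups were well separated. COL6A3, on the minus strand at chr2:238232646-238322971 (ENSG00000163359), encodes the longest chain of collagen VI. It was at 3.32, 3.53 and 2.41 CPM with NC siRNA and at 9.83, 11.1 and 11.97 CPM with BNC2 siRNA, and the log2 fold change was 1.82 (standard error 0.16), or 3.53-fold. COL6A3 thus had the lowest level of the 3 and the largest fold change.

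COL7A1, on the minus strand at chr3:48601506-48632762 (ENSG00000114270), encodes the single chain of anchoring fibrils and is spread over 118 exons. It was at 6.08, 4.59 and 4.76 CPM with NC siRNA and at 10.9, 10.6 and 11.2 CPM with BNC2 siRNA (log2 fold change 1.08, standard error 0.14). The BNC2 siRNA libraries differed from one another by less than the NC siRNA libraries did. COL16A1, on the minus strand at chr1:32117864-32169920 (ENSG00000084636), encodes the FACIT among the 10. It was at 18.0, 18.3 and 18.0 CPM with NC siRNA and at 51.5, 55.5 and 41.6 CPM with BNC2 siRNA (log2 fold change 1.45, standard error 0.10). Its control libraries were the closest of any of the 10 genes, with a coefficient of variation of 0.884%, while the third BNC2 siRNA library was lower than the other two and still above all controls.

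COL13A1, at chr10:71561636-71724031 on the plus strand (ENSG00000197467), encodes the transmembrane collagen. Its counts were 5, 13 and 7 with NC siRNA and 37, 54 and 37 with BNC2 siRNA, which is 0.282, 0.728 and 0.421 CPM against 2.15, 3.05 and 2.36 CPM. The log2 fold change was 2.38 (standard error 0.33), the largest and the least precise of the 10. It was between 2.09 and 2.81 over the alternatives that could be fitted, and leaving out any BNC2 siRNA library took COL13A1 below the filter. COL15A1, a multiplexin gene as COL18A1 is, lay just outside the filter, with 2, 7 and 4 counts with NC siRNA and 15, 27 and 17 counts with BNC2 siRNA.

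COL18A1, at chr21:46825080-46933634 on the plus strand (ENSG00000182871), was at 28.7, 32.3 and 26.8 CPM with NC siRNA and at 99.0, 99.1 and 94.2 CPM with BNC2 siRNA. The BNC2 siRNA libraries were nearly level, and the log2 fold change was 1.73 (standard error 0.07), or 3.33-fold. Of the 10 genes 6 were at least 2-fold higher, COL4A1, COL6A3, COL7A1, COL16A1, COL13A1 and COL18A1. Over all genes tested, 18.1% differed at least 2-fold in either direction.

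**Figure D2:**
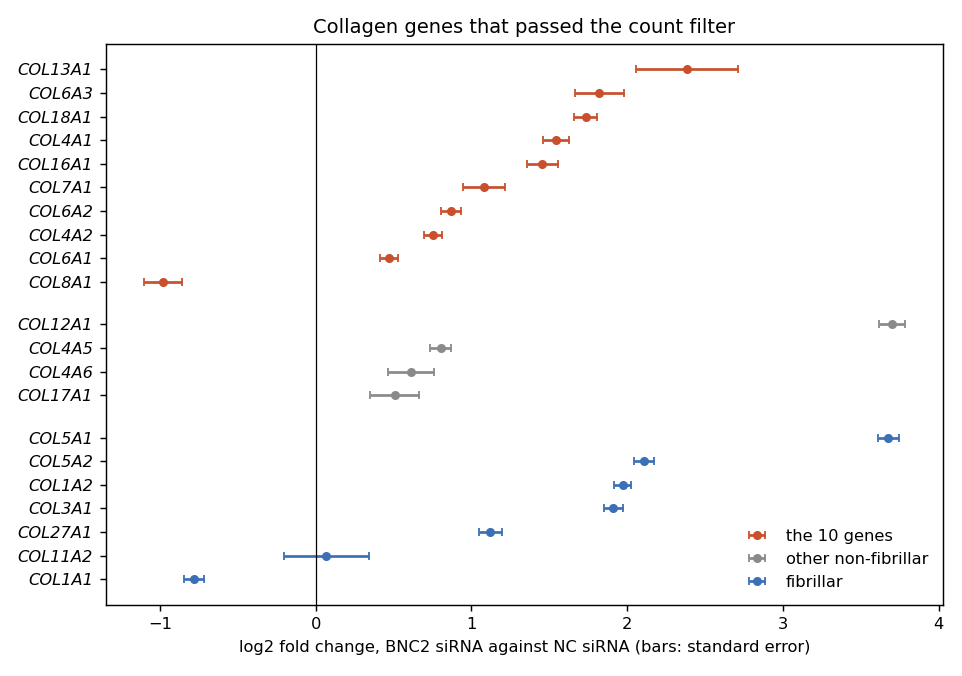
Log2 fold change of BNC2 siRNA against NC siRNA, with bars for the standard error, for the 21 collagen genes that passed the filter, in red the 10 genes, in grey the other non-fibrillar collagens and in blue the fibrillar collagens. The 10 genes run from -0.98 (COL8A1) to 2.38 (COL13A1), and COL12A1 and COL5A1 lie to the right of all of them.

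Levels of different genes were compared per kilobase of the longest coding transcript (RPKM). With NC siRNA the order was COL6A1 at 60.0 ± 3.78 RPKM (SD, n = 3 here and for each level that follows), COL6A2 at 29.9 ± 2.11, COL4A2 at 18.8 ± 0.991, COL4A1 at 6.91 ± 0.998 and COL18A1 at 4.44 ± 0.421 RPKM. These were followed by COL16A1 at 3.34 ± 0.0295, COL8A1 at 2.68 ± 0.246, COL7A1 at 0.555 ± 0.0881, COL6A3 at 0.293 ± 0.0567 and COL13A1 at 0.152 ± 0.0726 RPKM. The last pair overlapped between libraries and all other neighbours in the order did not. The same order held with BNC2 siRNA, from COL6A1 at 83.2 ± 2.01 and COL6A2 at 54.4 ± 2.65 RPKM to COL6A3 at 1.04 ± 0.102 and COL13A1 at 0.800 ± 0.149 RPKM, but there COL8A1 at 1.36 ± 0.160 and COL7A1 at 1.18 ± 0.0324 RPKM overlapped as well. The levels depend on the length used. With the length of all annotated exons in place of 1 transcript, those of COL4A2 became 6.27 and 10.6 RPKM with NC and BNC2 siRNA, of COL4A1 3.08 and 8.98, of COL6A2 19.3 and 35.1, of COL16A1 1.95 and 5.35, of COL8A1 1.63 and 0.824, of COL6A3 0.143 and 0.510 and of COL13A1 0.0415 and 0.219 RPKM. With that length, COL18A1 moved above COL4A1 in both groups, though with NC siRNA their libraries overlapped, and above COL4A2 with BNC2 siRNA, and COL7A1 moved above COL8A1 with BNC2 siRNA.

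Because chains of a trimer are needed together, the ratio of their levels per kilobase was taken in each library. COL4A2 relative to COL4A1 was 2.42, 3.00 and 2.80 with NC siRNA and 1.64, 1.48 and 1.59 with BNC2 siRNA. Both groups were above 1, and the ratio was lower in every BNC2 siRNA library. COL6A1 relative to COL6A2 was 2.03, 2.00 and 2.01 with NC siRNA and 1.48, 1.57 and 1.55 with BNC2 siRNA, again without overlap. COL6A1 relative to COL6A3 was 180, 192 and 258 with NC siRNA and 90.0, 76.7 and 74.5 with BNC2 siRNA, and COL6A2 relative to COL6A3 went from 88.9, 96.0 and 128 to 60.9, 48.9 and 48.2. In each ratio the chains were closer to equal with BNC2 siRNA, yet the COL6A3 transcript stayed well below both partners. The size of every ratio depends on the lengths used, and its direction between the groups does not. With the length of all annotated exons, COL4A2 relative to COL4A1 averaged 2.05 with NC siRNA and 1.18 with BNC2 siRNA. COL6A1 relative to COL6A2 then averaged 2.37 and 1.80.

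**Figure D3:**
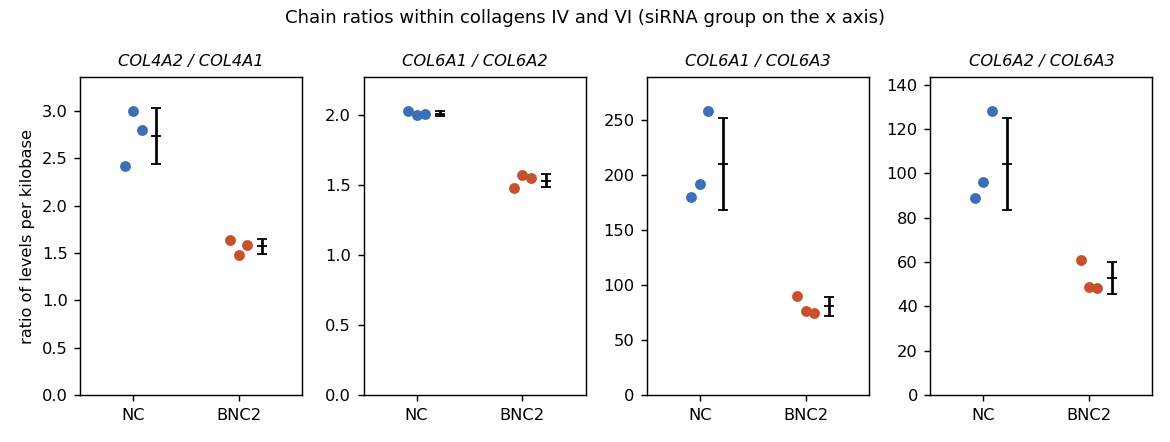
Ratio of levels per kilobase of the longest coding transcript between chains of collagen IV (left panel) and collagen VI (other panels), with 1 point per library by siRNA group and a bar for the mean and SD. Every ratio is lower in the 3 BNC2 siRNA libraries, for example 1.57 ± 0.0825 against 2.74 ± 0.294 for COL4A2 relative to COL4A1.

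Summed per kilobase, the 10 genes made up 127 ± 6.06 RPKM with NC siRNA and 218 ± 4.03 RPKM with BNC2 siRNA, a ratio of 1.71. Collagen VI went from 90.2 ± 5.91 to 139 ± 4.45 RPKM and the 2 collagen IV genes from 25.7 ± 1.83 to 51.8 ± 1.30 RPKM. The sum over all 41 collagens with an annotated length went from 962 ± 12.6 to 2813 ± 16.6 RPKM. The 10 genes were therefore a smaller share of collagen transcript with BNC2 siRNA, 7.74 ± 0.152% against 13.2 ± 0.469%, although their own sum was higher. The fibrillar collagens went from 83.7 ± 0.574% to 86.8 ± 0.246% and the other non-fibrillar collagens from 3.09 ± 0.351% to 5.43 ± 0.268%.

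**Figure D4:**
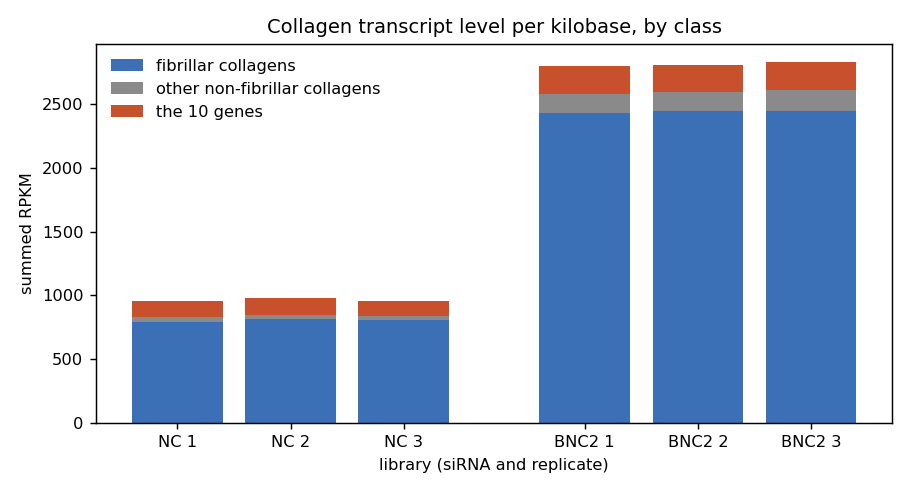
Summed RPKM of collagen genes in each library, stacked by class, with fibrillar collagens in blue, other non-fibrillar collagens in grey and the 10 genes in red. The red part is taller in the BNC2 siRNA libraries (218 against 127 RPKM) but a smaller share of the bar.

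The counts are of the strand each gene is on, and reads on the opposite strand of the same genes were also deposited. They were few. At COL18A1 they numbered 52, 54 and 52 with NC siRNA and 87, 107 and 82 with BNC2 siRNA, against 445 to 1756 counts on its own strand. SLC19A1, the gene for a folate carrier, overlaps COL18A1 on the opposite strand and rose by 0.71 on the log2 scale (standard error 0.08, adjusted p = 4.2e-07). The part of SLC19A1 in the opposite-strand reads of COL18A1 was not tested. At COL16A1 the opposite-strand counts were 10, 15 and 8 with NC siRNA and 12, 16 and 29 with BNC2 siRNA, the last in the library with the lowest COL16A1 level of its group.

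The nearest tested genes on each side of the collagens were examined, and they lay 2.1 to 736.8 kb away. Of 15 such genes, 8 rose, 4 fell and 3 did not pass the test (median log2 fold change 0.42), against 36.6% higher and 36.2% lower over all genes tested. COL4A1 and COL4A2 lie between IRS2, 362.4 kb from COL4A1, and RAB20, 9.9 kb from COL4A2. IRS2, an insulin receptor substrate, fell by 2.08 on the log2 scale (standard error 0.12, adjusted p = 2.1e-10). RAB20, a small GTPase, was at 0.27 (standard error 0.14, adjusted p = 0.091). The nearest tested genes on both sides of COL8A1, the gene that was lower, rose. DCBLD2, 736.8 kb away, rose by 1.05 (standard error 0.07) and C3orf26, 18.6 kb away, by 0.48 (standard error 0.07). On chromosome 21 each tested gene beside a collagen rose. PCBP3, which encodes a poly(C)-binding protein and lies between COL18A1 and COL6A1, rose by 0.65, C21orf56 beyond COL6A2 by 0.92 and POFUT2, an O-fucosyltransferase gene before COL18A1, by 0.43, with standard errors of 0.11, 0.10 and 0.07.

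PFKFB4, a regulator of glycolysis on the same strand whose start lies 2.1 kb beyond the end of COL7A1, rose by 2.32 (standard error 0.09, adjusted p = 2.4e-12), more than COL7A1 itself, and UQCRC1, a subunit of respiratory complex III on the other side, rose by 0.42 (standard error 0.07). MLPH, 71.1 kb from COL6A3, rose by 0.56 (standard error 0.06). COPS8, a subunit of the COP9 signalosome 223.5 kb away on the other side, was at 0.13 (standard error 0.07, adjusted p = 0.13). COL16A1 and COL13A1 differed from the nearest tested genes. BAI2, an adhesion receptor gene beside COL16A1, fell by 1.72 (standard error 0.09), and PEF1 on its other side was at -0.17 (standard error 0.08, adjusted p = 0.069). C10orf35 and AIFM2, 168.3 and 133.9 kb away on either side of COL13A1, fell by 1.20 and 0.77 on the log2 scale (standard errors 0.27 and 0.12).

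**Figure D5:**
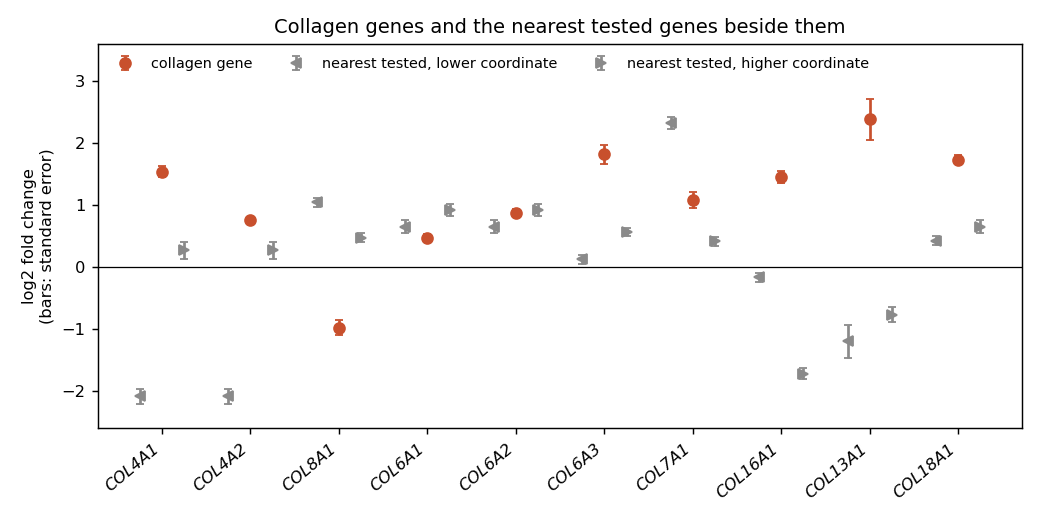
Log2 fold change, with bars for the standard error, of each collagen gene (red circles) and of the nearest tested gene at lower and at higher coordinates (grey triangles). COL8A1 lies below both neighbours, and COL4A1, COL4A2, COL16A1 and COL13A1 lie above genes that fell.

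The table lists 25 further non-fibrillar collagens, of which 4 were tested and all 4 rose (median log2 fold change 0.71), where 36.6% of all genes tested rose. COL12A1, a FACIT like COL16A1, rose by 3.70 (standard error 0.08, adjusted p = 1.6e-15), from 2149, 1754 and 1647 counts to 22494, 24084 and 23192. COL4A5 and COL4A6, which encode chains of another collagen IV trimer and are also arranged head to head, rose by 0.80 and 0.61 (standard errors 0.07 and 0.15). The last was COL17A1, the transmembrane collagen of hemidesmosomes, at 0.51 (adjusted p = 0.0086), whose call was lost without NC siRNA replicate 3 (adjusted p = 0.056). Of the 11 fibrillar collagens 7 were tested, of which 5 rose and 1 fell (median 1.91), beside the same 36.6% and 36.2% over all genes. COL5A1 rose by 3.68, COL5A2 by 2.11 and COL1A2 by 1.97, while COL1A1 fell by 0.78 on the log2 scale (standard errors 0.05 to 0.07).

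Genes for partners in the basement membrane went both ways. Among 23 listed genes 19 were tested, of which 10 rose, 6 fell and 3 did not pass the test (median 0.20), where 36.6% of all genes tested rose and 36.2% fell. The median was 0.09 without NC siRNA replicate 3 and 0.12 with scaling by total counts. The nidogens, which tie the laminin and collagen IV networks together, were among the largest rises, with NID2 from 531, 437 and 468 to 2522, 2685 and 2376 counts (a log2 rise of 2.45, standard error 0.07, adjusted p = 6.6e-14) and NID1 at 1.48 (standard error 0.08, adjusted p = 4.9e-11). HMCN1 (hemicentin) rose by 1.23 (standard error 0.15). LAMB1, a laminin chain, fell by 1.00 on the log2 scale (standard error 0.05). HSPG2 (perlecan), a basement membrane proteoglycan as collagen XVIII is, fell by 0.90 on the log2 scale (standard error 0.11), from 336, 308 and 330 to 200, 160 and 146 counts. Its direction was thus opposite to that of COL18A1.

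Of 15 receptors for these collagens 9 were tested, with 4 higher, 3 lower and 2 not past the test (median 0.08), shares near the 36.6% and 36.2% of all genes tested. This median turned negative without the filter on low counts (-0.28), with counts of both strands (-0.02) and with edgeR's filterByExpr filter (-0.01). GPR126, an adhesion receptor that binds collagen IV, rose by 2.18 (standard error 0.08, adjusted p = 8.4e-13), from 611, 523 and 473 to 2206, 2467 and 2361 counts. MRC2, an endocytic collagen receptor, rose by 1.13 (standard error 0.06) and ITGA10, an integrin chain, by 0.95 (standard error 0.06). DDR1, a receptor tyrosine kinase activated by collagen, fell by 1.16 (standard error 0.08, adjusted p = 9.1e-10). CSPG4, a proteoglycan that binds collagen VI, fell by 0.69 (standard error 0.11), and ITGB1, the β chain of the collagen-binding integrins, fell by 0.49 (standard error 0.05).

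Genes for collagen folding and secretion were all tested, 22 of 22, of which 17 rose, 3 fell and 2 did not pass the test (median 0.61), against 36.6% and 36.2% of all genes tested. FKBP10, a prolyl isomerase and chaperone of the endoplasmic reticulum, rose by 1.55 (standard error 0.06, adjusted p = 6.4e-13), from 3687, 3659 and 3458 to 10783, 11010 and 8970 counts. P4HA2, a prolyl 4-hydroxylase chain, rose by 1.44 (standard error 0.06) and TMEM39A by 1.29 (standard error 0.07). LEPREL1, a prolyl 3-hydroxylase for which collagen IV is a substrate, fell by 0.90 on the log2 scale (standard error 0.05, adjusted p = 2.7e-10). CTAGE5 and PLOD2 fell by 0.21 and 0.17 (standard errors 0.08 and 0.07, adjusted p = 0.026 and 0.029). CTAGE5 was not called when replicate 3 of NC siRNA was left out, nor without replicates 1 or 3 of BNC2 siRNA taken singly (adjusted p = 0.082, 0.073 and 0.099). PLOD2 was not called without NC siRNA replicate 1 or either of those BNC2 siRNA replicates (adjusted p = 0.080, 0.094 and 0.070).

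Of 18 proteases that mature or cut non-fibrillar collagens 12 were tested, of which 3 rose, 8 fell and 1 did not pass the test (median -0.43), beside 36.6% and 36.2% of all genes tested. MMP9, a gelatinase that also cuts collagen IV, fell by 4.96 on the log2 scale (standard error 0.10, adjusted p = 3.0e-16), from 1969, 1856 and 1633 to 63, 57 and 50 counts. MMP3 (stromelysin) fell by 3.87 (standard error 0.12) and CTSK (cathepsin K) by 1.08 (standard error 0.18). TLL1, a protease of the BMP1 family, rose by 1.32 (standard error 0.15), ADAM10 by 0.50 (standard error 0.06) and MMP14, a membrane-bound metalloprotease, by 0.22 (standard error 0.05, adjusted p = 0.0011). Protein levels and cleavage were not measured.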

How the data were processed

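Gene counts of 6 BT549 libraries (3 biological replicates per siRNA group) were deposited by the authors, who aligned single-end reads of poly(A) RNA with STAR 2.6.1d to hg19 and counted unique reads per gene. The counts are raw, of the reverse strand. Reads in no gene (37.7% to 41.1% of a library) were left out. Total counts of 16093978 to 18246254 put 3 counts at 0.168 to 0.191 CPM, for counting error only.

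edgeR 4.0.16 in R 4.3.3 was used (TMM, more than 1 CPM in at least 3 libraries, quasi-likelihood test, Benjamini-Hochberg over 12186 genes, called at 0.05), checked on simulated data. The standard error is the log2 fold change over the square root of F. DESeq2 1.42.0 and other settings were alternatives. The collagens and lists were chosen with earlier results of these data known. Per list, up to 3 rises and 3 falls were named among called genes whose higher group averaged 5 CPM or more, plus tested neighbours. The exceptions were the other non-fibrillar collagens, where all 4 tested genes were named, and the cell type markers, which were named without this rule. A result that this rule would name is not reported here. The planned permutation test of chain ratios is not given, as those genes were chosen on this contrast and 3 against 3 cannot go below 0.1. Positions and lengths are from GENCODE 44 on GRCh37 (the assembly of hg19), matched for 97.0% of tested genes, promoters from RefSeq (GRCh38.p14), and siRNA sequences from the study's methods.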

Additional observations from a re-analysis of the deposited data

Results flagged for a closer look

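Reads on the strand opposite to a gene are outside the main measurement. For 4 of the 10 collagens they were higher in every BNC2 siRNA library than in every NC siRNA library. Over all 12186 genes tested this held for 4.37%, and the reverse, lower in every BNC2 siRNA library, for 23.1%. The 10 genes were chosen on this contrast, in which 9 were higher on their own strand, so nothing is read from their number. Of the 4, COL13A1 and COL6A3 rest on 5 or fewer reads per library. COL18A1 had 5.44 ± 0.524 CPM (SD, n = 3) on its opposite strand with BNC2 siRNA and 3.03 ± 0.101 CPM with NC siRNA. COL4A1 had 2.13 ± 0.341 CPM with BNC2 siRNA and 1.28 ± 0.430 CPM with NC siRNA, and the nearest libraries of the groups were close, at 1.80 and 1.75 CPM. COL4A2, which overlaps COL4A1 by 1346 bases on the opposite strand, was itself 1.69-fold higher, and its part in these reads was not tested. COL13A1 had 5, 4 and 2 opposite-strand counts with BNC2 siRNA, or 0.215 ± 0.0823 CPM, and 0 counts in each NC siRNA library, which allows up to 0.168 to 0.181 CPM, so that the third BNC2 siRNA library, at 0.127 CPM, is within that limit. COL6A3 had 0.156 ± 0.0602 CPM from 2, 4 and 2 counts with BNC2 siRNA, against 1 count in each NC siRNA library. As a share of the reads on both strands, the opposite strand went from 9.25%, 8.57% and 10.5% to 4.86%, 5.74% and 5.25% at COL18A1. At COL4A1 this share went from 3.21%, 2.75% and 2.15% to 1.4%, 1.82% and 1.54%. It was 0% with NC siRNA and 11.9%, 6.9% and 5.13% with BNC2 siRNA at COL13A1, and the groups overlapped at COL6A3. The differences were not tested. COL8A1, by contrast, had 10, 8 and 6 opposite-strand counts with NC siRNA and 3, 5 and 0 with BNC2 siRNA.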

How the results depend on the processing

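Over 14 alternatives (other tests, scalings, filters, strands, a replicate block and each library left out), all 137 values obtained for single members of the 10 collagens kept their direction and their side of the threshold, which is a description, as the genes were chosen on this contrast, and COL13A1 had no value without a BNC2 siRNA library because it then failed the filter. The median log2 fold change of the 10 genes was 1.06 to 1.32 when 1 library was left out (1.09, 1.11 and 1.06 over 9 genes without BNC2 siRNA replicate 1, 2 and 3), and 1.19 to 1.30 otherwise. Without the filter on low counts, 3 other non-fibrillar and 2 fibrillar collagens were called lower, and the median of the former was -0.99, as more genes were tested. Folding and secretion genes called lower numbered 1 to 3 when 1 library was left out. Same-numbered libraries did not deviate together (correlations of -0.208, -0.0811 and -0.13, against -0.0678 to 0.176 for libraries with different numbers). With 3 libraries per group this cannot show whether the numbers pair the samples, and the labels do not say. With a replicate block, 1 folding and secretion gene was called lower and the median of the 10 collagens was 1.27, and the block changed no other count by over 1.5 times. Scaling by total counts moved the median of all genes by -0.0761 and gave 3950 genes higher and 4922 lower, against 4462 and 4417. The median of the receptor list was -0.02 with counts of both strands, -0.01 with filterByExpr and -0.28 without the filter, against 0.08. COL8A2, with at most 5 counts in a library, was too shallow to compare.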

Other observations

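Several collagens below the filter had uneven counts between the groups and were picked out here after their values were seen, without a test. COL24A1, a fibrillar collagen, had 3, 0 and 3 counts with NC siRNA and 22, 17 and 16 with BNC2 siRNA. COL21A1, a FACIT, had 12, 6 and 6 counts with NC siRNA and 5, 0 and 0 with BNC2 siRNA, and COL9A2, a chain of the cartilage FACIT collagen IX, had 5, 6 and 9 counts against 0, 0 and 2. Of the remaining collagen IV chains, COL4A3 had at most 2 counts in a library and COL4A4 at most 7. Of the collagen VI chains, COL6A5 had at most 3 counts and COL6A6 had 0 in all libraries.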
